A study of Mus musculus with 6 samples.

Results

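The 8 genes *Pcp2*, *Pcp4*, *Gng13*, *Rgs8*, *Calb1*, *Ppp1r17*, *Pvalb* and *Garnl3* are known as markers of Purkinje cells (PCs), and their transcripts were followed here through every nucleus of a single nuclei RNA sequencing dataset of mouse cerebellum. The rows of these genes, 8 of the 32286 counted, were read from the tables of all 6 mice and summed per mouse and per cell type label. The tables hold 45473 nuclei, of which 292 carry the PC label and 45181 do not. The questions were how much of each marker was counted in PC nuclei against all other nuclei, and whether SCA1 mice differed from wild-type (WT) mice in each label.

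Spinocerebellar ataxia type 1 (SCA1) was modelled with the *Pcp2-ATXN1[82Q]* line, in which the *Pcp2* promoter drives human *ATXN1* with an expanded CAG repeat in PCs. Whole cerebella came from 3 SCA1 mice and from 3 WT littermates matched for sex, all 12 weeks old, with 1 library per mouse. The line had been crossed onto C57BL/6, and both genotypes keep their own mouse *Atxn1*. The transgene is thus limited to the cells in which the *Pcp2* promoter works, and *Pcp2*, whose promoter it uses, is itself among the genes described. Transcripts were counted by unique molecular identifiers (UMIs), tags that let amplified copies of 1 molecule be told from separate molecules. Levels are given as UMIs per nucleus or as UMIs of a gene per 1000000 UMIs of the summed nuclei (CPM).

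PCs are the sole output neurons of the cerebellar cortex, and calcium signals in their large dendritic tree are central to their function. Several of the genes serve that signalling. *Calb1* (calbindin) and *Pvalb* (parvalbumin) encode calcium buffers, and *Pcp4* encodes a small protein that binds calmodulin. *Pcp2* encodes a modulator of G proteins, *Gng13* a G protein gamma subunit and *Rgs8* a regulator that speeds the shutting off of G protein signals. *Ppp1r17* encodes an inhibitor of protein phosphatases, and *Garnl3* a protein with a GTPase activating domain of the Rap/RanGAP type. *Pvalb* is also made by the interneurons of the molecular layer, so it marks PCs less strictly. In droplet methods, RNA set free from broken cells can enter any droplet and be counted as if it came from the nucleus there.

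On GRCm38 (mm10) the calcium buffer genes lie at chr4:15881264-15908064 (*Calb1*, plus strand) and chr15:78191114-78206400 (*Pvalb*, minus strand), and *Pcp4* lies at chr16:96467606-96525793 (plus strand). The G protein genes lie at chr8:3623371-3625545 (*Pcp2*, minus strand), chr17:25717171-25719406 (*Gng13*, plus strand) and chr1:153653025-153700323 (*Rgs8*, plus strand). *Ppp1r17* lies at chr6:56017497-56032689 (plus strand) and *Garnl3* at chr2:32986224-33131654 (minus strand). The genes differ in length, from 2175 bases for *Pcp2* to 145431 bases for *Garnl3*, and reads on introns were counted with those on exons. Another annotated gene overlaps *Pcp2* (*Pet100*), *Gng13* (*Chtf18*) and *Rgs8* (*Gm29529*) on the opposite strand, and *Pcp4* (*Igsf5*) and *Garnl3* (*Gm38299*) on the same strand, so part of their counts may depend on how reads were assigned.

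The promoter windows of 3 genes are shown, from 250 bases before the start to 50 after it, in RefSeq's sequence for GRCm38.p6: *Pcp2*, whose promoter also drives the transgene (chr8:3625498-3625797, minus strand), *Pcp4* (chr16:96467356-96467655, plus strand), and *Garnl3* (chr2:33131387-33131686, minus strand), the gene that stood furthest from the others in what follows. Capitals mark AGGTCA or its reverse complement TGACCT, the core motif of nuclear receptors such as the PC regulator RORα.
Pcp2: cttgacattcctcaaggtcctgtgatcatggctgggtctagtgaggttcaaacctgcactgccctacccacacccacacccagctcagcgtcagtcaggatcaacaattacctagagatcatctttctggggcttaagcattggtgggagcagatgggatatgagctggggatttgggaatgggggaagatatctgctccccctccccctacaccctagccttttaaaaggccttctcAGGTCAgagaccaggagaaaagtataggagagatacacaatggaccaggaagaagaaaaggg
Pcp4: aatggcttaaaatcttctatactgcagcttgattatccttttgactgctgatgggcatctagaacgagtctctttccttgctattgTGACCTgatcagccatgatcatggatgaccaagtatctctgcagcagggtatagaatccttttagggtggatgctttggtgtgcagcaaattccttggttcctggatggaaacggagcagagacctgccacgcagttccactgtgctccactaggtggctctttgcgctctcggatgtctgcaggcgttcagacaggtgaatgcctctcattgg
Garnl3: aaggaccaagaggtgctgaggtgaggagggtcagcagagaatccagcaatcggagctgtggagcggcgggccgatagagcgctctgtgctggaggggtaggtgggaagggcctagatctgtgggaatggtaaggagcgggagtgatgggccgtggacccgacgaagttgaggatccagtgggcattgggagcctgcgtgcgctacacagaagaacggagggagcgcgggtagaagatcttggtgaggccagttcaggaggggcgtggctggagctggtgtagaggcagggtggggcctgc
The motif begins 12 bases before the start of *Pcp2* and 164 bases before the start of *Pcp4*, and these letters are not in the *Garnl3* window. Of the 6 members matched to a window, 2 held the motif on either strand, beside 16.3% of all 32851 promoter windows. A match of letters is a description of the window and not a binding site.

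The PC label was given by SingleR, the reference based annotation of the study, and its name in that reference contains *Pcp2* itself. Labels were thus made from the expression of the same nuclei, and levels between labels are given without a test. The label was set against 24 other genes known from PCs, such as *Car8* and *Itpr1*: 21 of the 24 were higher in PC nuclei than in all other nuclei in 6 of 6 mice, and their summed level was 58879 to 101058 CPM in the PC sums, while its median over the mice in the other labels tested ran from 3390 CPM in oligodendrocytes (OLs), the lowest, to 31691 CPM in the neurons labelled Pvalb-Nefh, with 23121 CPM in Bergmann glia (BG). Granule neuron markers summed to 37.2 to 355 CPM in PC nuclei, OL markers to 27.7 to 260 CPM and BG markers to 24.04 to 117 CPM. In 273 of the 292 PC nuclei (93.5%), the label was also the most frequent one of the Seurat cluster in that mouse. The study asked for both the cluster and the label when it assigned a cell type, whereas the 292 carry the label alone. The 3 SCA1 mice gave 65, 52 and 29 PC nuclei and the WT mice 76, 41 and 29, each listed from mouse 1 to mouse 3, as are all values per mouse. Human *ATXN1*, counted as a gene of its own, had 12, 15 and 19 UMIs in PC nuclei of SCA1 mice and 0 in those of each WT mouse. All other nuclei held 45, 45 and 41 of its UMIs in SCA1 and 37, 17 and 15 in WT, which do not carry the transgene. These counts are not scaled to depth. The same nuclei held 95836910, 39736355 and 52160577 UMIs of all genes in SCA1 and 94817111, 18087118 and 27091091 in WT. The libraries held 18916647 to 98366627 UMIs in all, and 254 of 45219 barcodes occurred in more than 1 library. PC nuclei were deeper than the rest, with a median of 36466.5 UMIs against 5923 in granule neurons and 6453 in OLs.

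All 8 markers had more UMIs per nucleus in PC nuclei than in all other nuclei in every mouse, but most of their UMIs lay in nuclei without the PC label. Relative to total UMIs the 8 genes fell far apart. The ratio of the level in other nuclei to that in PC nuclei, on the CPM scale, averaged 0.0752 for *Garnl3*, 0.116 for *Ppp1r17*, 0.183 for *Rgs8*, 0.190 for *Calb1*, 0.315 for *Pcp2*, 0.589 for *Pcp4*, 0.968 for *Gng13* and 1.00 for *Pvalb*, over the 6 mice. On this scale 5 of the 8 genes were higher in PC nuclei in 6 of 6 mice. The others were *Pvalb*, which was higher outside PC nuclei in SCA1 mice 1 and 2 and WT mouse 1, *Gng13*, in SCA1 mouse 1 and WT mouse 1, and *Pcp4*, in WT mouse 1.

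**Figure D1:**
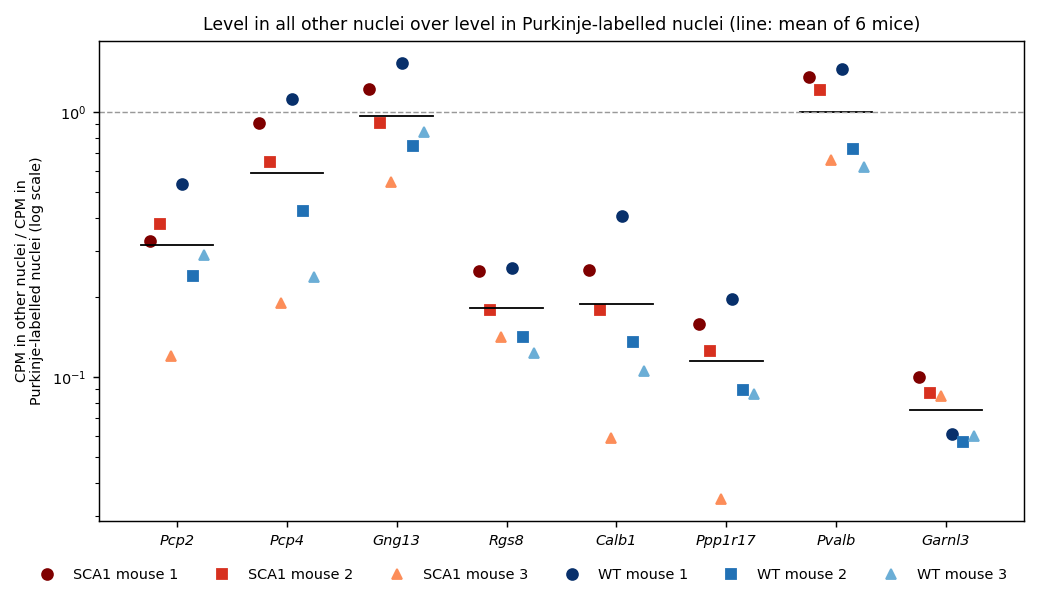
Ratio of the CPM in all other nuclei to the CPM in PC nuclei for each of the 8 genes on a log axis, with 1 point per mouse and a line at the mean of the 6. *Garnl3* has the lowest mean, with a ratio of 0.0752, and *Gng13* and *Pvalb* spread on both sides of 1.

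Among the calcium genes, UMIs of *Calb1* per PC nucleus were 28.4, 16.0 and 48.3 in SCA1 and 36.2, 22.2 and 29.0 in WT, and those per other nucleus were 1.64, 0.766 and 0.363 in SCA1 and 3.14, 0.406 and 0.648 in WT. For *Pvalb*, PC nuclei had 8.22, 3.88 and 5.66 in SCA1 and 13.2, 6.12 and 5.17 in WT, and all other nuclei had 2.52, 1.25 and 0.476 in SCA1 and 4.13, 0.596 and 0.684 in WT. In all other nuclei both genes were highest in WT mouse 1, and both were lowest in SCA1 mouse 3. For *Pcp4*, the values per PC nucleus were 15.7, 9.40 and 23.4 in SCA1 and 26.5, 16.2 and 22.0 in WT, and those per other nucleus were 3.26, 1.63 and 0.570 in SCA1 and 6.35, 0.919 and 1.11 in WT. The order of the mice outside PC nuclei was again led by WT mouse 1, whereas within PC nuclei SCA1 mouse 3 and WT mouse 3 came close to it in UMIs per nucleus. PC nuclei of SCA1 mouse 3 were deeper, with a mean of 60240 UMIs against 42643 in WT mouse 1. In CPM, *Pcp4* in PC nuclei was lowest in SCA1 mouse 3, at 389 against 621 in WT mouse 1.

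For the G protein genes, UMIs of *Pcp2* per PC nucleus were 30.0, 12.2 and 21.7 in SCA1 and 35.8, 16.5 and 11.6 in WT. Those per other nucleus were 2.24, 1.23 and 0.331 in SCA1 and 4.11, 0.534 and 0.707 in WT. The level outside PC nuclei therefore ranged 12.4-fold over the mice, and its order was not that of the PC nuclei: SCA1 mouse 3 was lowest outside PC nuclei but above SCA1 mouse 2 and WT mice 2 and 3 within them. PC nuclei of SCA1 mouse 3 were also the deepest, with a mean of 60240 UMIs. In CPM their *Pcp2* level, 359, was above that of WT mouse 3 (301) alone. UMIs of *Gng13* per PC nucleus were 4.35, 2.33 and 2.00 in SCA1 and 10.3, 4.05 and 2.55 in WT, and per other nucleus 1.21, 0.567 and 0.138 in SCA1 and 3.38, 0.405 and 0.456 in WT. This was the widest range of the 8 genes outside PC nuclei, 24.5-fold from SCA1 mouse 3 to WT mouse 1. Those of *Rgs8* per PC nucleus were 13.6, 6.33 and 25.3 in SCA1 and 27.3, 13.6 and 26.7 in WT, and per other nucleus 0.784, 0.304 and 0.458 in SCA1 and 1.51, 0.258 and 0.699 in WT, a 5.85-fold range.

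For *Ppp1r17*, the phosphatase inhibitor, UMIs per PC nucleus were 9.91, 5.12 and 12.97 in SCA1 and 16.3, 6.17 and 7.90 in WT, and per other nucleus 0.356, 0.172 and 0.0573 in SCA1 and 0.691, 0.0742 and 0.145 in WT. For *Garnl3* they were 71.4, 32.6 and 115 in SCA1 and 121, 47.7 and 104 in WT per PC nucleus, and 1.63, 0.762 and 1.25 in SCA1 and 1.59, 0.364 and 1.32 in WT per other nucleus. *Garnl3* differed from the 7 other genes in the mouse that was highest outside PC nuclei, which was SCA1 mouse 1 and not WT mouse 1, and in its range, which was the narrowest of the 8 at 4.48-fold.

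PC nuclei held 2.57 to 4.39% of all UMIs of a mouse. Of the UMIs of *Garnl3*, 20.8 to 44.6% lay in PC nuclei, and of those of *Ppp1r17* 14.3 to 49.1%. For *Calb1* the share was 7.79 to 36.2%, for *Rgs8* 9.46 to 25%, for *Pcp2* 5.99 to 21.8% and for *Pcp4* 2.81 to 14.9%. *Pvalb* (1.92 to 6.19%) and *Gng13* (2.11 to 5.81%) were distributed over PC and other nuclei about as all UMIs were. In every mouse, more UMIs of each of the 8 genes lay outside PC nuclei than within them.

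Among nuclei without the PC label, the number of *Pcp2* UMIs per nucleus varied less between the cell types of a mouse than depth did. There were 12 labels other than PC with at least 10 nuclei in each mouse: granule neurons, OLs, BG, velate astrocytes (VA), endothelial tip nuclei, and 7 kinds of other neurons that are called here by the last part of their label (Lgi2, Pvalb-Cadm1, Pvalb-Chrm2, Pvalb-Nefh, Pvalb-Rab3b, Nrgn and Sln). The nuclei labelled endothelial tip held a median of 1097.5 CPM of 3 fibroblast markers and 97.4 CPM of 4 endothelial and mural markers, so their own markers went against that name, which is kept only as the label's. The label was the most frequent one of its cluster for 0% of Pvalb-Rab3b, 14.4% of Pvalb-Chrm2 and 47.9% of Lgi2 nuclei, so these are labels of SingleR and not clusters of their own. The coefficient of variation (CV) of *Pcp2* UMIs per nucleus over these labels was 5.57 to 27.2% in the 6 mice, while the CV of the total UMIs per nucleus was 44.4 to 55.2%. The highest label held 1.36, 1.54 and 4.50 times the lowest in SCA1 and 1.20, 2.15 and 2.01 times in WT, so the labels were nearest to level in WT mouse 1 and SCA1 mouse 1. Dividing by depth raised the spread, to a CV of 32.2 to 46.8% in CPM.

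**Figure D2:**
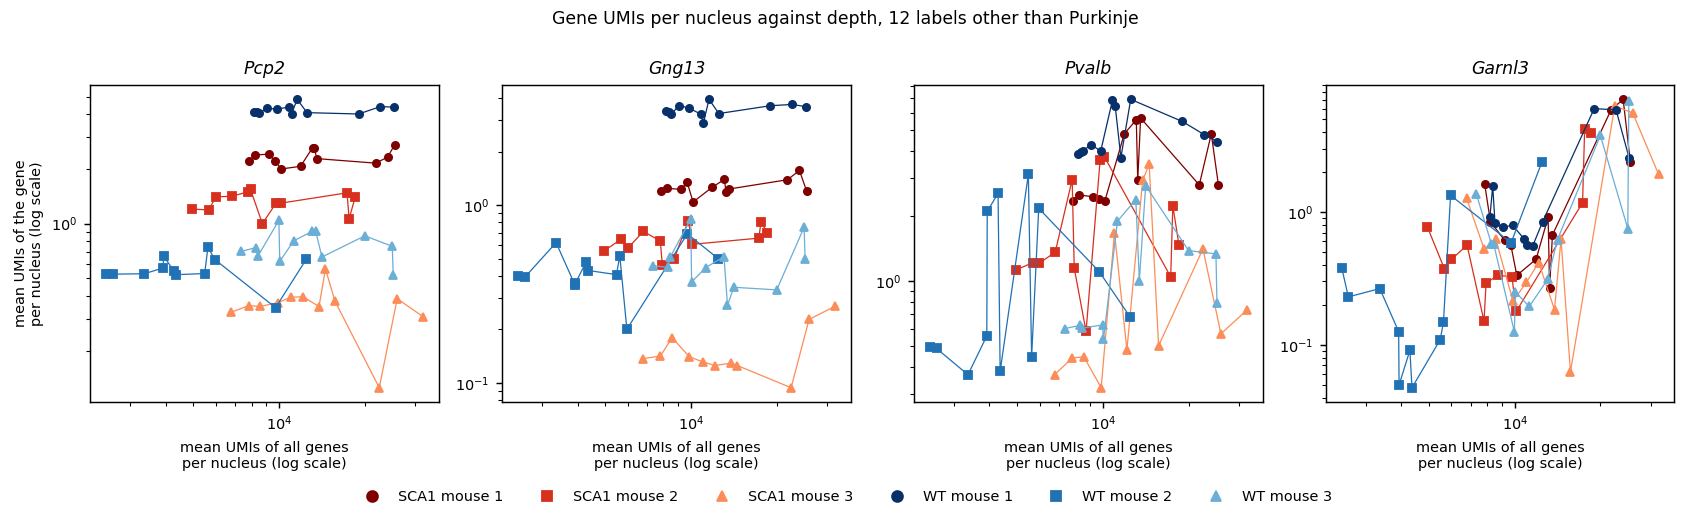
Mean UMIs per nucleus of *Pcp2*, *Gng13*, *Pvalb* and *Garnl3* against the mean UMIs of all genes per nucleus, both on log axes, with 1 point per label other than PC and mouse, and a line joining the labels of a mouse in order of depth (sums at 0 are not drawn). The *Pcp2* lines are flattest in WT mouse 1 and SCA1 mouse 1, with a CV of 5.57 to 27.2% over the 6 mice, whereas *Garnl3* varies widely within each mouse, with a CV of 110 to 158%.

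In OLs, taken as the reference label, *Pcp2* UMIs per nucleus were 2.39, 1.19 and 0.354 in SCA1 and 4.10, 0.527 and 0.738 in WT. In granule neurons they were 2.22, 1.20 and 0.325 in SCA1 and 4.10, 0.530 and 0.703 in WT. Relative to OLs of the same mouse, the median over the 6 mice was 0.98 in granule neurons and 1.04 in BG. For *Pcp4*, *Gng13* and *Calb1* granule neurons had medians of 0.98, 0.98 and 1.01, and *Pvalb* with 0.95. Over all 12 labels the CV of UMIs per nucleus was 7.32 to 30.1% for *Calb1*, 7.83 to 46.8% for *Gng13*, 7.72 to 69.7% for *Pcp4*, 13.4 to 92.1% for *Ppp1r17*, 24.9 to 96.0% for *Pvalb* and 17.3 to 97.8% for *Rgs8*, so that of the last 4 lay above the range of the depth CV in at least 1 mouse.

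**Figure D3:**
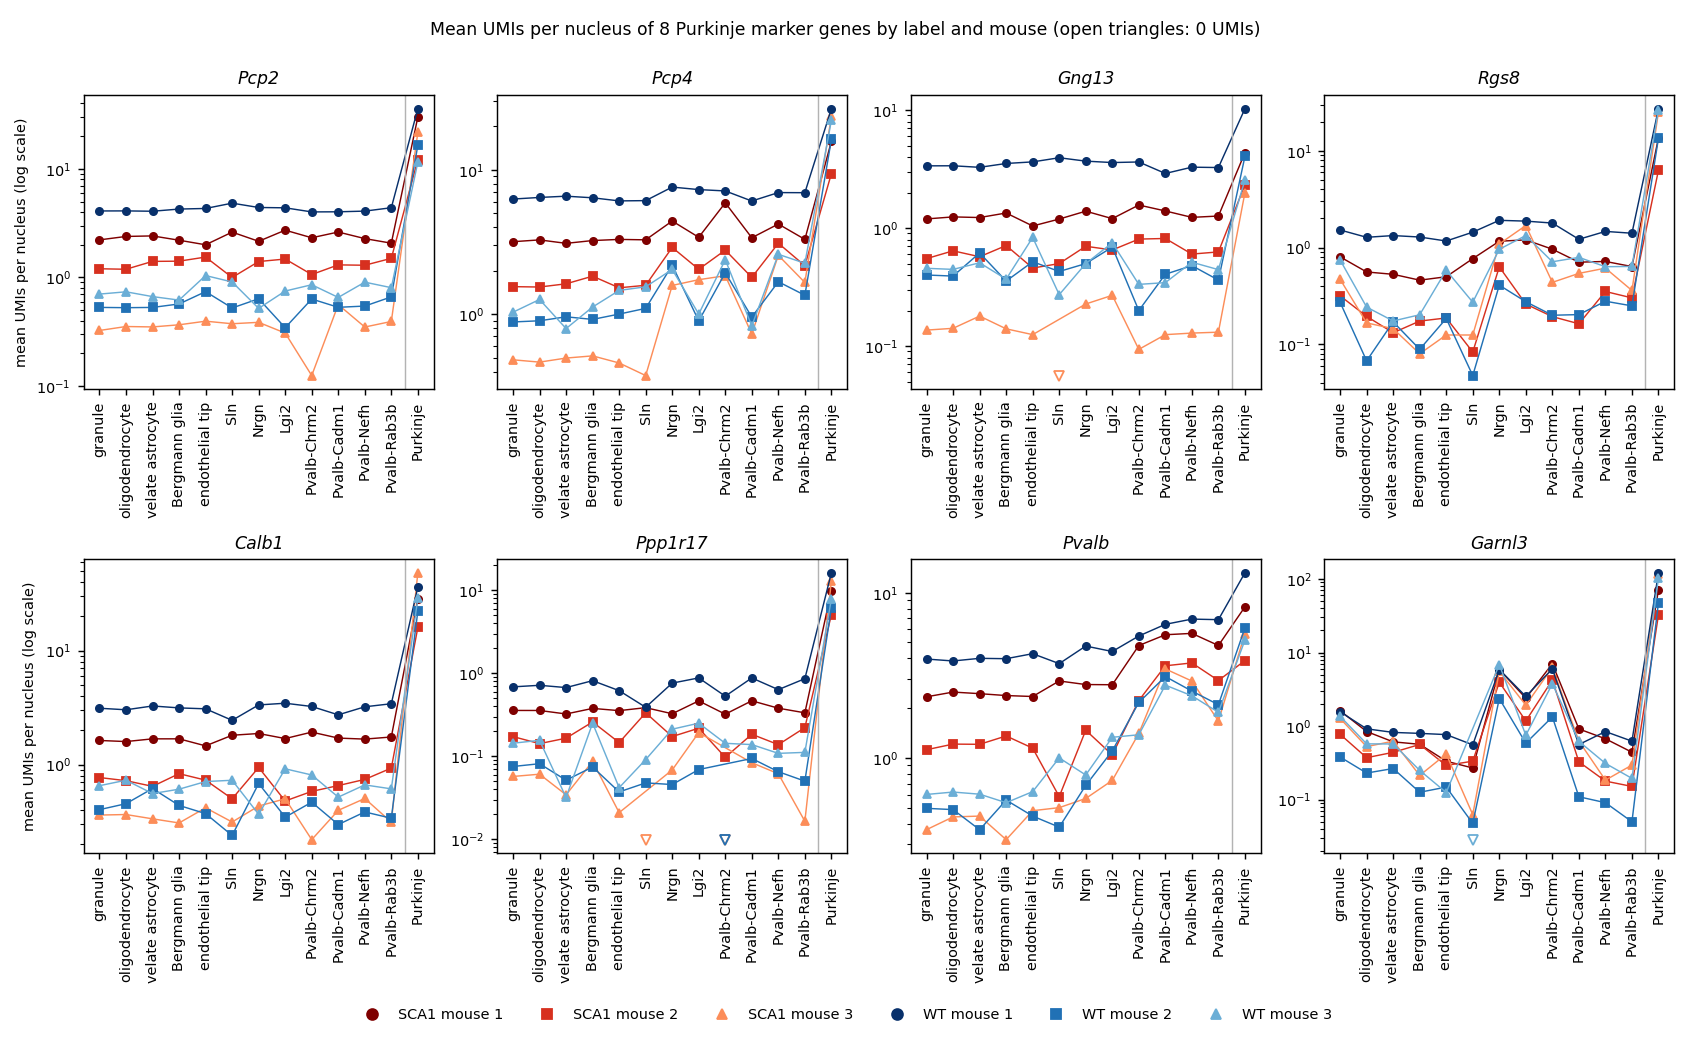
UMIs per nucleus of each of the 8 genes on a log axis, by cell type label, with 1 point per mouse, lines joining the points of a mouse and open triangles for sums at 0. *Pcp2*, *Gng13* and *Calb1* are closer to level across the labels other than PC in SCA1 mouse 1 and WT mouse 1 than in the other 4 mice, whereas *Garnl3* varies between them.

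In microglia and the choroid plexus, which had few nuclei, *Pcp2*, *Pcp4* and *Gng13* lay near the OL level. Microglia (125 nuclei in all) held 0.92 of the *Pcp2* UMIs, 0.91 of the *Pcp4* UMIs and 0.96 of the *Gng13* UMIs expected from OLs of the same mice, and nuclei of the choroid plexus (83 nuclei) held 1.01, 0.94 and 1.05. Other genes lay further from it, with *Ppp1r17* in microglia at 0.57 of the OL level (18 UMIs in all), *Garnl3* in microglia at 1.49 (104 UMIs) and *Calb1* in the choroid plexus at 1.49 (164 UMIs). These labels are small, and the values pool nuclei of the mice without an error.

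Several neuron labels exceeded the OL level in UMIs per nucleus, but many of them were also deeper, with median depths of 20677 UMIs in Nrgn, 21372.5 in Lgi2 and 15264 in Pvalb-Chrm2 nuclei against 6453 in OLs. In CPM, only *Rgs8* in granule neurons, *Pvalb* in Pvalb-Cadm1, Pvalb-Nefh and Pvalb-Rab3b nuclei, and *Garnl3* in Nrgn, Pvalb-Chrm2 and granule nuclei were above OLs in 6 of 6 mice among the 12 labels. In UMIs per nucleus *Pvalb* stood above OLs of the same mouse in 6 of 6 mice in the Pvalb-Cadm1 (median 3.71), Pvalb-Nefh (3.46), Pvalb-Rab3b (2.73) and Pvalb-Chrm2 (2.07) labels, whose names carry that gene, and in Nrgn nuclei (1.25). In CPM its medians were 2.17, 2.08, 2.00, 0.79 and 0.40 in the same order, so the direction turned in the last 2. In Pvalb-Nefh nuclei the UMIs of *Pvalb* per nucleus were 5.68, 3.76 and 2.92 in SCA1 and 6.93, 2.54 and 2.38 in WT, and in CPM these nuclei were above the PC nuclei of the same mouse in 6 of 6 mice. *Pcp4* was above OLs per nucleus in 6 of 6 mice in Pvalb-Nefh (1.94), Pvalb-Chrm2 (1.85), Nrgn (1.75) and Pvalb-Rab3b (1.45) nuclei, but in CPM in 4, 1, 1 and 3 mice, with medians of 1.13, 0.70, 0.52 and 1.01. The full label of Nrgn nuclei names *Slc17a6*, whose level was not checked here, and their *Pcp4* UMIs per nucleus were 4.41, 2.90 and 1.58 in SCA1 and 7.59, 2.18 and 2.04 in WT. *Gng13* was above OLs per nucleus in 6 of 6 mice in Nrgn nuclei alone (1.12), where in CPM it was below OLs in 6 of 6 (0.38). *Rgs8* was above OLs per nucleus in 6 of 6 mice in Nrgn (3.60), Lgi2 (3.11), granule (2.23), Pvalb-Nefh (2.21) and Pvalb-Rab3b (1.86) nuclei. In CPM its medians were 1.13, 0.89, 2.57, 1.34 and 1.33, and granule neurons alone kept 6 of 6 mice. Its UMIs per nucleus in granule neurons were 0.803, 0.318 and 0.471 in SCA1 and 1.52, 0.272 and 0.745 in WT, and in OLs 0.560, 0.195 and 0.167 in SCA1 and 1.28, 0.0676 and 0.243 in WT.

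*Garnl3* varied most between the labels. Its UMIs per nucleus had a CV of 110 to 158% over the 12 labels, and relative to OLs of the same mouse the median was 10.4 in Nrgn, 7.46 in Pvalb-Chrm2, 2.80 in Lgi2, 2.00 in granule neurons and 0.61 in BG, the first 4 above 1 in 6 of 6 mice. In CPM the medians were 2.90, 2.83, 0.89, 2.20 and 0.47, with Lgi2 nuclei above OLs in 1 mouse. In Nrgn nuclei the UMIs of *Garnl3* per nucleus were 5.87, 3.95 and 5.56 in SCA1 and 5.88, 2.36 and 6.85 in WT. *Garnl3* was also the gene with the largest median gap between PC nuclei and the other labels: per nucleus, PC nuclei held 80.3 to 252 times the median label (median over the mice 164), whereas for *Pcp2* the range was 8.56 to 60.1 and for *Gng13* 2.98 to 14.9. In CPM, which takes out the greater depth of PC nuclei, the ranges were 23.5 to 72.9 for *Garnl3*, 2.04 to 10.5 for *Pcp2* and 0.75 to 3.38 for *Gng13*.

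The mixture of the markers outside PC nuclei was not that of PC nuclei. In WT mouse 1, *Gng13* had 0.29 UMIs per *Pcp2* UMI in PC nuclei and 0.72 to 0.90 in the 12 other labels. In SCA1 mouse 1 the same ratio was 0.14 in PC nuclei and 0.44 to 0.68 elsewhere. The ratio was lower in PC nuclei than in the median label in 6 of 6 mice, but within a mouse it varied little between OLs (0.52 in SCA1 mouse 1 and 0.82 in WT mouse 1) and granule neurons (0.54 and 0.82). *Pcp4* followed the same order in 5 mice, with 0.74 UMIs per *Pcp2* UMI in PC nuclei of WT mouse 1 against 1.26 to 1.78 elsewhere, and the reverse in WT mouse 3, with 1.90 in PC nuclei and a median of 1.71 elsewhere. *Garnl3* went the other way, with 3.39 UMIs per *Pcp2* UMI in PC nuclei of WT mouse 1 and a median of 0.20 elsewhere. Transcripts in the nucleus and in the cytoplasm were not measured apart, and whether free RNA from PC cytoplasm accounts for these mixtures was not tested.

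Depth within 1 cell type gave a further description. In granule neurons the quartile of nuclei with the most UMIs was 2.42 to 3.49 times as deep as the quartile with the fewest. Over the 6 mice *Pcp2* UMIs per nucleus rose only 1.16- to 1.48-fold between these quartiles, *Pcp4* 1.14- to 1.28-fold, *Gng13* 1.10- to 1.29-fold, *Pvalb* 1.11- to 1.37-fold, *Calb1* 1.20- to 1.64-fold and *Ppp1r17* 1.19- to 1.91-fold. *Rgs8* rose 1.65- to 2.91-fold, and *Garnl3* rose 2.41- to 3.48-fold, close to the rise in depth. These are the same 2 genes that exceeded the OL level in granule neurons of 6 of 6 mice.

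The 19 PC nuclei whose cluster carried another label were shallow, with a median of 4450 UMIs against 38208 in the other 273. They held on average 3.11 *Pcp2*, 3.68 *Pcp4*, 2.74 *Gng13*, 3.16 *Calb1* and 4.00 *Garnl3* UMIs, against 25.2, 19.9, 5.24, 31.2 and 87.1 in the 273. In CPM, which takes depth into account, the 19 held 385 for *Pcp2*, 457 for *Pcp4*, 340 for *Gng13*, 392 for *Calb1* and 496 for *Garnl3*, against 663, 523, 138, 821 and 2289 in the 273.

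The share of nuclei with at least 1 UMI separated PC nuclei from OLs less for *Pcp2* and *Gng13* than for *Garnl3*. The share of PC nuclei with a *Pcp2* UMI was 100%, 96.2% and 100% in SCA1 and 100%, 97.6% and 96.6% in WT. The share of OLs with one was 87.4%, 65.0% and 28.3% in SCA1 and 98.9%, 38.5% and 40.8% in WT, at per-mouse median depths of 16186 to 58288 UMIs in PC nuclei and 2255.5 to 7164 in OLs. The OL shares vary with the mouse from 28.3 to 98.9%, and a *Pcp2* UMI in a nucleus does not by itself identify a PC here. After each nucleus was thinned to 1000 UMIs, which left out 0 nuclei, the *Pcp2* share of PC nuclei was 47.7%, 50.0% and 37.9% in SCA1 and 60.5%, 58.5% and 37.9% in WT, and that of OLs 28.6%, 21.7% and 3.54% in SCA1 and 41.2%, 20.3% and 9.71% in WT. The thinned *Gng13* share of PC nuclei was 9.23%, 17.3% and 6.90% in SCA1 and 23.7%, 14.6% and 17.2% in WT, and that of OLs 12.6%, 13.7% and 3.54% in SCA1 and 34.1%, 14.9% and 8.74% in WT. In SCA1 mouse 1 and WT mice 1 and 2 the *Gng13* share of PC nuclei was thus below the share in OLs. Without thinning, PC nuclei of these mice held 3.50, 3.05 and 10.3 times the *Gng13* UMIs per nucleus of OLs. Thinning takes more UMIs from the deeper PC nuclei, and the source of the *Gng13* UMIs was not tested. The thinned *Garnl3* share of PC nuclei was 69.2%, 63.5% and 65.5% in SCA1 and 81.6%, 78.0% and 75.9% in WT, and that of OLs 8.96%, 6.64% and 4.55% in SCA1 and 10.5%, 6.08% and 5.83% in WT, with no overlap between the 2 labels.

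SCA1 and WT mice were then compared within PC nuclei. The fitted log2 fold change (SCA1 minus WT) was below 0 for all 8 genes, from -1.16 to -0.38, yet 0 of the 8 passed an adjusted p of 0.05 by edgeR, as did 0% of the 10517 genes tested. At an unadjusted edgeR p under 0.05 there were 6 of 8 members, all but *Pcp2* and *Calb1*, against 6.85% of all genes tested. DESeq2 called 3 of the 8, *Pcp4*, *Rgs8* and *Garnl3*, beside 1.25% of the 5216 genes to which it gave an adjusted p. The median log2 fold change was -0.77 over the members and 0.02 over all genes. In 3 of 8 genes, again *Pcp4*, *Rgs8* and *Garnl3*, all SCA1 mice lay below all WT mice in CPM, which held for 2.6% of the genes tested. When counts were scaled by library size alone, the median of all genes moved up by 0.18 on the log2 scale and the 8 genes stayed below 0, between -0.97 and -0.20.

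Of the calcium genes, *Calb1* had CPM values of 731, 771 and 803 in SCA1 and 849, 1098 and 754 in WT. The mean was 768 ± 35.9 CPM (SD, n = 3) in SCA1 and 900 ± 178 CPM in WT, the groups overlapped, and the fitted log2 fold change was -0.40 (SE 0.224, edgeR adjusted p = 0.860). *Pvalb* had CPM values of 211, 187 and 93.9 in SCA1 and 309.8, 303 and 135 in WT, with overlapping groups and a log2 fold change of -0.80 (SE 0.302, edgeR adjusted p = 0.586). In both genotypes *Pvalb* was lowest in mouse 3. *Pcp4*, the calmodulin binder, had CPM values of 404, 453 and 389 in SCA1 and 621, 802 and 573 in WT. Its groups did not overlap, with 415 ± 33.1 CPM in SCA1 and 665 ± 121 CPM in WT (SD, n = 3 each) and a log2 fold change of -0.86 (SE 0.210, edgeR adjusted p = 0.232).

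*Rgs8* showed the widest gap between the genotypes beside its spread. It had CPM values of 351, 304 and 419.6 in SCA1 and 640.0, 670.3 and 695 in WT, which gave 358 ± 57.9 in SCA1 and 668 ± 27.4 in WT (SD, n = 3 each). The highest SCA1 mouse, mouse 3, was well below the lowest WT mouse, mouse 1, and the log2 fold change was -1.07 (SE 0.227, edgeR adjusted p = 0.158). *Gng13* had CPM values of 112, 112 and 33.2 in SCA1 and 241, 200.1 and 66.4 in WT. Its fitted difference was larger, at -1.16, but so was its spread (SE 0.420, edgeR adjusted p = 0.552), with mouse 3 lowest in both genotypes and WT mouse 3 below SCA1 mice 1 and 2. *Pcp2* had CPM values of 772, 585 and 359 in SCA1 and 840.2, 816 and 301 in WT. The *Pcp2* groups overlapped widely, at 572 ± 206 in SCA1 and 652 ± 305 in WT (log2 fold change -0.38, SE 0.322, edgeR adjusted p = 0.998).

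*Ppp1r17* had CPM values of 255, 246 and 215 in SCA1 and 382, 305 and 206 in WT, and its groups overlapped (log2 fold change -0.48, SE 0.212, edgeR adjusted p = 0.726). *Garnl3* had CPM values of 1835, 1568 and 1909 in SCA1 and 2846, 2356 and 2695 in WT. All SCA1 values lay below all WT values, at 1771 ± 180 against 2632 ± 251 (SD, n = 3 each), with a log2 fold change of -0.75 (SE 0.262, edgeR adjusted p = 0.517). The libraries fall into a batch of 2 mice, SCA1 mouse 1 and WT mouse 1, and a batch of 4, as inferred from the library numbers. Within the batches, in that order, SCA1 minus WT in log2 CPM was -0.87 and -0.93 for *Rgs8*, -0.62 and -0.69 for *Pcp4*, -0.63 and -0.54 for *Garnl3*, -1.11 and -0.92 for *Gng13* and -0.55 and -0.61 for *Pvalb*. For *Ppp1r17* it was -0.59 and -0.12, for *Calb1* -0.22 and -0.21 and for *Pcp2* -0.12 and -0.11. Each of the 8 genes was thus lower in SCA1 in both batches by these differences, with 1 mouse per genotype in the first. Within the batch of 4 the genotypes overlapped for *Pcp2*, *Calb1*, *Ppp1r17*, *Gng13* and *Pvalb*. How many of all genes were lower in both batches was not counted.

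**Figure D4:**
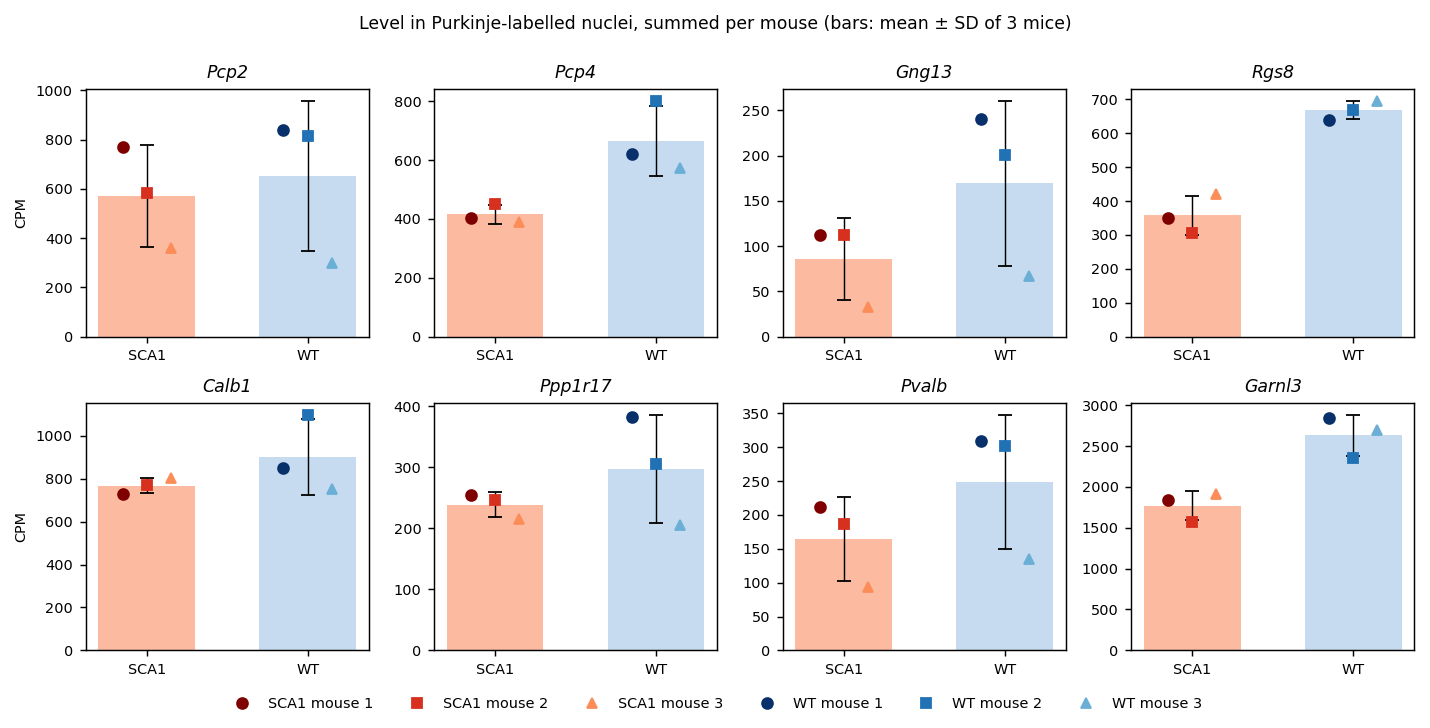
CPM of each of the 8 genes in the summed PC nuclei, with 1 point per mouse and the mean and SD of the 3 mice of each genotype. The SCA1 and WT points do not overlap for *Pcp4*, *Rgs8* and *Garnl3*, and they overlap for the other 5 genes.

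Thinned shares of PC nuclei with a UMI gave the same 3 genes the smallest p that 3 mice against 3 allow. That p states only that the shares of the SCA1 and WT mice did not overlap. The shares come from the same nuclei and counts as the CPM values, so they are not separate evidence. The p values of the shares are unadjusted, and how many of all genes would reach the smallest p was not counted. The mean share was 24.7% in SCA1 and 41.7% in WT for *Rgs8*, 66.1% and 78.5% for *Garnl3* and 32.5% and 43.4% for *Pcp4*, with a two-sided exact permutation p of 0.1 for each. For the other 5 genes the exact permutation p was 0.3 to 0.7. Within the 2 batches the difference was -30.9 and -10.1 percentage points for *Rgs8*, -12.4 and -12.5 for *Garnl3* and -9.57 and -11.5 for *Pcp4*. Without thinning, shares were near their ceiling, and the difference for *Rgs8* and *Garnl3* was above 0.

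Outside PC nuclei, on counts scaled to depth, 7 of the 8 genes had fitted log2 fold changes between -1.05 and -0.32, and that of *Garnl3* was near 0. Mean depth there was 2712 UMIs per nucleus in WT mouse 2 and 5547 to 9128 in the other mice. UMIs per nucleus were not tested between genotypes. By that measure SCA1 mouse 2 was above WT mice 2 and 3, and SCA1 mouse 3 below both, for *Pcp2*, *Pcp4*, *Gng13*, *Calb1*, *Ppp1r17* and *Pvalb*. For *Rgs8* and *Garnl3* SCA1 mice 2 and 3 lay between WT mice 2 and 3. In all other nuclei summed, 0 of 8 genes were called by edgeR, with 0.00499% of 20049 genes called, that is *Gm12160* alone (log2 fold change 6.57, SE 0.303). Of the members 1, *Rgs8*, was at an unadjusted edgeR p under 0.05, as were 1.46% of all genes. The log2 fold changes were -0.56 for *Calb1* (SE 0.382), -0.32 for *Pvalb* (SE 0.485), -0.60 for *Pcp4* (SE 0.498), -0.41 for *Pcp2* (SE 0.550), -1.05 for *Gng13* (SE 0.594), -0.78 for *Rgs8* (SE 0.158) and -0.53 for *Ppp1r17* (SE 0.445). *Garnl3* stood at -0.004 (SE 0.204). The edgeR adjusted p was 1.00 for all 8. Granule neurons make up 37532 of the 45181 nuclei in this sum, and fewer cells and less RNA per cell cannot be told apart in it.

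The values behind these folds overlapped for all 8 genes, while all SCA1 mice lay below all WT mice for 0.853% of the genes tested. *Rgs8* had CPM values of 88.6, 54.8 and 59.7 in SCA1 and 165, 95.2 and 85.8 in WT there. The lowest WT mouse, WT mouse 3, fell below SCA1 mouse 1. *Gng13* had CPM values of 137, 102 and 18.0 in SCA1 and 370.3, 149 and 56.0 in WT, with WT mouse 1 far above the other 5 mice. *Garnl3* had CPM values of 184, 137 and 162 in SCA1 and 174, 134 and 163 in WT, nearly the same in both genotypes and in both cases highest in mouse 1. The spread between WT mice outside PC nuclei was therefore far larger for *Gng13* than for *Garnl3*.

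Over the 12 other labels taken one by one, 0 members were called by edgeR in any, where 0.00547% of the genes tested were called in granule neurons, 0.00866% in OLs and 0% in the other 10. All 8 genes were tested in 10 of the labels, the exceptions being Pvalb-Chrm2, where *Ppp1r17* was too low to test, and Sln, where *Ppp1r17* and *Garnl3* were. At an unadjusted edgeR p under 0.05, in the labels that are not neurons, there were 1 member in BG (1.81% of all genes tested there), 3 in VA (1.1%), 1 in OLs (0.849%) and 2 in endothelial tip nuclei (2.2%). In neurons there were 1 in granule neurons (1.82%), 3 in Lgi2 (1.31%), 1 in Pvalb-Cadm1 (2.37%), 2 of 7 tested in Pvalb-Chrm2 (2.31%), 3 in Pvalb-Nefh (1.01%), 2 in Pvalb-Rab3b (1.74%), 0 in Nrgn (1.18%) and 2 of 6 tested in Sln (2.15%). The log2 fold change ran from -1.77 to -0.65 for *Gng13* (median -1.001), from -1.47 to -0.27 for *Rgs8* (median -0.91), from -1.21 to -0.21 for *Calb1* (-0.62), from -1.08 to -0.29 for *Pcp4* (-0.59), from -1.09 to -0.15 for *Pcp2* (-0.41), from -0.89 to -0.04 for *Pvalb* (-0.32) and from -0.92 to -0.40 for *Ppp1r17* (-0.61, 10 labels). These 7 genes were below 0 in every label in which they were tested, while *Garnl3* was below 0 in 6 of 11 labels, from -0.49 to 0.33 (median -0.07). In the batch of 2, all 7 were lower in SCA1 wherever log2 CPM could be taken. In the batch of 4, mean log2 CPM was higher in SCA1 for *Pcp2* in Pvalb-Cadm1 and Nrgn, *Pcp4* in Lgi2, and *Rgs8* and *Calb1* in Nrgn. So it was for *Ppp1r17* in VA (by 0.47), endothelial tip and Lgi2, and *Pvalb* in VA (by 0.21), endothelial tip and Nrgn. The remaining differences there were below 0. How many of all genes were below 0 in every label was not counted. The labels share their mice, so they are not independent of each other.

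**Figure D5:**
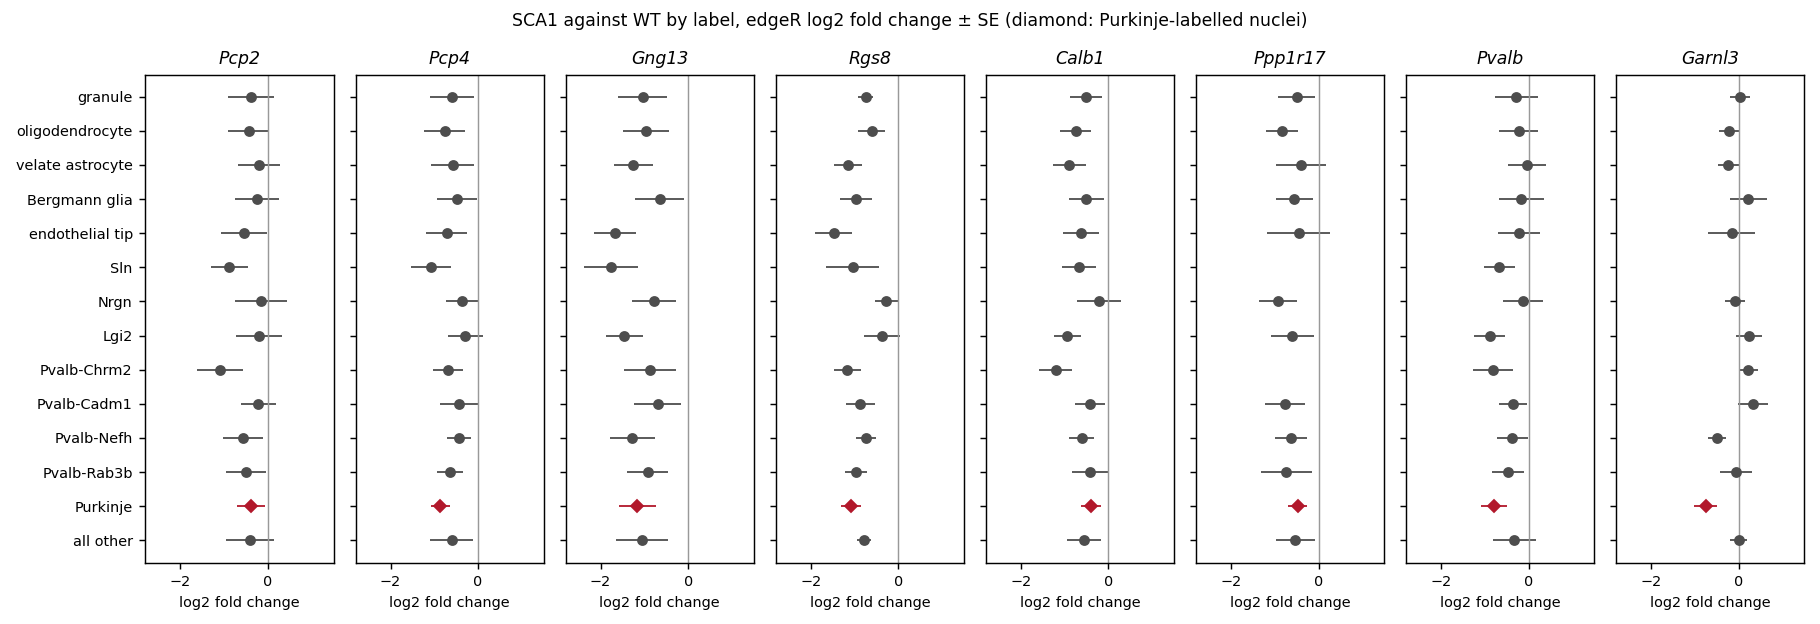
Fitted log2 fold change (SCA1 minus WT) of each gene in each cell type label and in all other nuclei summed, with its standard error and PC nuclei as diamonds. In the labels other than PC, *Gng13* and *Rgs8* lie furthest below 0, with medians of -1.001 and -0.91, and *Garnl3* lies around 0 with a median of -0.07, while its value in PC nuclei is -0.75.

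In VA *Gng13* had a log2 fold change of -1.25 (SE 0.456, edgeR adjusted p = 1.00), beside 0% of 11193 genes called. With the replicate number as a block, *Gng13* was at -1.35 (SE 0.196, edgeR adjusted p = 0.0119), the 1 gene called of those tested (0.00893%). That block rests on correlations of same-numbered mice in these same counts, the lowest being 0.133 in VA, and no source gives a pairing. Without SCA1 mouse 2, edgeR called *Calb1*, *Gng13*, *Pcp4* and *Rgs8* in VA, beside 0.0737% of genes, and *Rgs8* in BG, beside 0.0172% of genes. In BG, *Rgs8* stood at -0.96 (SE 0.369) and *Gng13* at -0.65 (SE 0.551), and in OLs *Gng13* stood at -0.97 (SE 0.534) and *Ppp1r17* at -0.83 (SE 0.367), each with an edgeR adjusted p of 1.00. All SCA1 mice lay below all WT mice in CPM for *Rgs8* in Pvalb-Rab3b nuclei, as for 2.78% of the genes tested there, and for no other member in any of the 12 labels, where this order held for 1.96% of the genes in BG, 2.21% in VA, 1.42% in OLs, 2.51% in endothelial tip nuclei, 1.05% in granule neurons, 3.09% in Lgi2, 2.69% in Pvalb-Cadm1, 3.68% in Pvalb-Chrm2, 1.96% in Pvalb-Nefh, 2.19% in Nrgn and 3.8% in Sln.

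In the sum of all nuclei of a mouse, *Rgs8* and *Garnl3* were lower in all SCA1 mice than in all WT mice in CPM, as were 1.24% of 20188 genes. This sum holds nuclei alone and is not a bulk sample of the tissue. *Rgs8* had a log2 fold change of -0.87 (SE 0.166, edgeR adjusted p = 1.00), with 0.00495% of genes called, and blocked by replicate number it was -0.88 (SE 0.0977, edgeR adjusted p = 0.0353), among 30 genes called (0.149%) in place of 1. DESeq2 also called *Rgs8* there, beside 0.0987% of genes. *Garnl3* stood at -0.33 (SE 0.209, edgeR adjusted p = 1.00).

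The difference between the genotype effects in PC and in all other nuclei was tested as an interaction. For *Garnl3* the effect in PC nuclei was 0.80 lower on the log2 scale than in all other nuclei (SE 0.196, unadjusted p = 0.001), but it was not called by edgeR over all 17529 genes (adjusted p = 0.333), of which 0% were called and 5.65% were at an unadjusted p under 0.05. For *Pvalb* the difference was -0.42 (SE 0.357), for *Rgs8* -0.36 (SE 0.316), for *Pcp4* -0.22 (SE 0.603), for *Gng13* 0.01 (SE 0.342), for *Calb1* 0.16 (SE 0.558), for *Ppp1r17* 0.18 (SE 0.503) and for *Pcp2* 0.24 (SE 0.420). Their edgeR adjusted p was 0.982 or higher. For BG, VA and OLs, each against granule neurons, 0 of 8 genes and 0% of all genes were called, and 0 of 8 were at an unadjusted edgeR p under 0.05, beside 1.2%, 1.51% and 1.2% of all genes.

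The ratio of other to PC level was compared between genotypes with 1 value per mouse. *Garnl3* was 0.61 higher in SCA1 on the log2 scale (two-sided exact permutation p = 0.1, the smallest possible, and 0.8 when adjusted over the 8 such tests), with 0.71 and 0.56 within the batches. With UMIs per nucleus in place of CPM its difference was 0.73, and the genotypes overlapped (exact permutation p = 0.3). For the other 7 genes the exact permutation p was 0.6 to 1, with differences from -0.44 for *Pcp2* to 0.24 for *Pvalb*.

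The 24 other PC genes give the setting for the 8. In PC nuclei 0 of 24 were called by edgeR, as were 0% of all genes, and 10 were at an unadjusted edgeR p under 0.05, beside 6.85% of all genes. A log2 fold change below 0 was found for 23 of the 24, with a median of -0.53, beside 47.5% of all genes with a median of 0.02. DESeq2 called 1 of the 24 there, *Homer3*, beside 1.25% of genes, the fit with no filter on low counts called 2, *Icmt* and *Aldoc*, beside 1.04%, and the fit with the replicate number as a block called 6, beside 1.75%. All SCA1 mice lay below all WT mice in PC nuclei for 7 of the 24, as for 2.6% of genes, and above for 1, *Foxp2*. The largest of these differences were those of *Lhx5*, a transcription factor of developing PCs (-0.95, SE 0.263, 33.8 ± 2.07 CPM in SCA1 and 58.2 ± 16.4 CPM in WT, edgeR adjusted p = 0.328), *Homer3*, a scaffold of the postsynapse (-0.84, SE 0.205, edgeR adjusted p = 0.231), and *Ebf2*, a transcription factor of a subset of PCs (-0.80, SE 0.230, edgeR adjusted p = 0.344). In all nuclei summed, DESeq2 called 3 of the 24, beside 0.0987% of genes, and the block 8, beside 0.149%. In all other nuclei 22 of 24 were below 0, with a median of -0.33, beside 51.0% of all genes with a median of -0.004, and 0 were called, beside 0.00499% of genes. Their median ratio of other to PC level was 0.0644, against 0.253 for the 8 members, and *Plcb4*, *Rora* and *Aldoc* were the 3 that were not higher in PC nuclei in every mouse.

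The genes whose level over labels and mice was most like that of the 8 were ranked by Pearson's r with the mean centred profile of the members, over 78 sums of log2(CPM + 1), among 8064 genes with at least 5 CPM in every PC sum. They were *Car8* (0.942), *Ywhah* (0.863), *Erp29* (0.838), *Itpka* (0.837) and *Icmt* (0.834), of which *Car8*, *Itpka* and *Icmt* are on the list of 24. Of the members themselves *Calb1* (0.958) and *Pcp2* (0.930) were nearest to the mean profile that they are part of, and *Pvalb* (0.697) and *Garnl3* (0.585) were furthest from it. The 78 points share libraries and depth, and the r values are a description.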

How the data were processed

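Nuclei of whole cerebella from 3 SCA1 and 3 WT mice, each a separate animal, were measured with 1 droplet library per mouse. The authors deposited UMI counts per gene and nucleus, whole numbers that were not normalized, with a SingleR label and a Seurat cluster per nucleus. Per the study's methods, reads were aligned to mm10 with human *ATXN1* added, introns were counted, and debris was removed with DIEM, with a higher UMI minimum for the first run. The submitters' processing notes name Cell Ranger 4.0.0, 5.0.1 and 6.0.1, R 4.1.0 and Seurat 4.0.4. The study's text states more nuclei after debris removal than the 45473 in the tables, and the reason was not tested. Free RNA was not removed here, no doublet caller was run, and 0 columns of values were left unused.

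Counts were summed per mouse and label and tested with edgeR 4.0.16 (R 4.3.3, limma 3.58.1) by the quasi-likelihood test. Genotype and batch were terms, scaling was by TMM, and genes under 10 counts, or 15 in total, by the rule of filterByExpr were left out. Adjusted p values are those of Benjamini and Hochberg over all genes tested, and 0.05 was the limit for a call. The study tested single nuclei with limma-trend, but nuclei of 1 mouse are not replicates. Labels with at least 10 nuclei in each mouse were tested, which left 11 labels with 431 nuclei to description. Batch was inferred from the library numbers, with 2 mice in batch 1 and 4 in batch 2. For shares and ratios, exact permutation tests over mice (two-sided) were used, whose smallest p is 0.1. Interactions had mouse as a term. Of 624 sums of a member per label and mouse, 5 were at 0. Libraries held 18916647 to 98366627 UMIs, and the 3 mice of a group set the precision of every comparison.

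Same-numbered mice were checked for pairing by the correlation of their deviations from the group means, which was over 0.1 in every pair in VA (lowest 0.133), Lgi2, Pvalb-Cadm1, Pvalb-Nefh, Pvalb-Rab3b, granule neurons (0.350), all other nuclei and all nuclei (0.407), though not in PCs, BG, OLs and the remaining labels. No source says that the numbers mark a shared litter or day.

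Other settings tried were scaling by RLE or by library size, DESeq2 1.42.0, leaving out the filter or the batch term, the replicate block, nuclei with 3000 UMIs or more, nuclei whose label and cluster agree, thinning to 1000 UMIs and omission of each mouse. The members, the 24 other PC genes and the tests were chosen with earlier results of these data known. Genes named beyond the members were, of the 24, the 3 of largest fold change among those whose genotypes did not overlap, and the 5 most like the members' mean profile. *Foxp2*, *Gm12160*, *Plcb4*, *Rora* and *Aldoc* were named after their values were seen. Gene positions are from GENCODE M21 by symbol, and promoter windows from RefSeq by symbol, 6 of 8 matched, taking the window nearest the annotated start. The count tests were also run on simulated data with known changes, after the reported fits, with their common dispersion and without a batch effect. Figures were drawn with matplotlib 3.10.9, and sums were made in Python 3.11.15 with pandas 2.3.3, scipy 1.17.1 and numpy 2.4.6.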

Additional observations from a re-analysis of the deposited data

How the results depend on the processing

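In PC nuclei the direction of the fitted differences held under 9 alternatives for all 8 genes, except that *Gng13* had no value after thinning, and leaving out single mice turned it for *Pcp2* alone, from -0.66 to 0.0786 (log2, above 0 without WT mouse 2). The calls were less steady. DESeq2 called 3 members (*Rgs8*, adjusted p = 0.0018, *Pcp4*, 0.0051, *Garnl3*, 0.0496), no filter on low counts 2 (*Gng13*, *Rgs8*), and the replicate number as a block 5 (*Garnl3*, *Gng13*, *Pcp4*, *Pvalb*, *Rgs8*). In PC nuclei the correlation of same-numbered deviations was 0.644, 0.0579 and 0.472 for mice 1, 2 and 3, not over 0.1 in every pair, so the numbers were not taken to pair the mice there. Mice 1 also share the inferred batch. Of all genes in PC nuclei, 0 were called in the reported fit, 65 by DESeq2, 8 with RLE factors, 2 with library size only, 223 with no filter (1.04% of the genes tested), 184 with the block (1.75%), 1 where label and cluster agree, 6 after thinning to 1000 UMIs, and 0 to 6 with a mouse left out (6 without WT mouse 2). In all other nuclei 1 gene was called, with 7 by DESeq2, 0 without the batch term, 0 after thinning and 0 to 1 with a mouse left out (0 without WT mouse 2). Members called elsewhere were 1 in VA with the block (*Gng13*), 1 in Lgi2 nuclei with no filter (*Gng13*, beside 0.143% of genes), 1 in all nuclei with DESeq2 and 1 with the block (*Rgs8*), 0 to 1 in BG (*Rgs8* without SCA1 mouse 2) and 0 to 4 in VA with a mouse left out (*Calb1*, *Gng13*, *Pcp4* and *Rgs8* without SCA1 mouse 2). Over the labels and pools other than PC, genes called reached 18 with DESeq2, 31 with no filter and 30 with the block, beside 1 at most in the reported fit. The block changed no other call of a member. *Garnl3* in all other nuclei was above 0 with library size only (0.0372), no filter (0.000609), nuclei of at least 3000 UMIs (0.0297) and thinning (0.0386), and ran from -0.13 to 0.145 with a mouse left out. *Pvalb* there ran from -0.98 to 0.0309. The interaction of *Gng13* was -0.00822 with RLE factors. Mean UMIs per nucleus in place of CPM gave mean ratios of other to PC level of 0.0665 for *Pcp2*, 0.125 for *Pcp4*, 0.200 for *Gng13*, 0.0374 for *Rgs8*, 0.040 for *Calb1*, 0.0245 for *Ppp1r17*, 0.209 for *Pvalb* and 0.0151 for *Garnl3*. With a mouse left out, the genotype difference of the log2 ratio ran from -0.75 to 0.0741 for *Pcp2*, -0.51 to 0.67 for *Pcp4*, -0.49 to 0.10 for *Gng13*, -0.0490 to 0.49 for *Rgs8*, -0.81 to 0.245 for *Calb1*, -0.80 to 0.29 for *Ppp1r17* and -0.00503 to 0.61 for *Pvalb*. That of *Garnl3* ran from 0.54 to 0.66. Shares in PC nuclei without thinning differed by 0.680 percentage points for *Pcp2*, 3.37 for *Rgs8*, 1.02 for *Calb1*, 5.41 for *Ppp1r17*, 0.691 for *Pvalb* and 2.91 for *Garnl3*, and in all other nuclei by 0.903 for *Pvalb*, all higher in SCA1. With a mouse left out, thinned shares ran from -9.94 to 2.30 for *Calb1*, -7.39 to 1.24 for *Ppp1r17* and -10.3 to 0.429 for *Pvalb* in PC nuclei, and in all other nuclei from -12.7 to 2.93 for *Pcp2*, -11.8 to 0.356 for *Calb1*, -2.83 to 0.295 for *Ppp1r17*, -11.9 to 3.51 for *Pvalb* and -0.448 to 1.89 for *Garnl3*. The causes of these changes were not tested. Nuclei whose label and cluster agree were too few in some mouse for 6 labels, so that setting was not run there. Where batch is a term, the lone mouse of batch 1 that remains when the other is left out adds nothing to the comparison. The smallest sums of PC nuclei held 29 nuclei.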
